A study of Homo sapiens with 12 samples.

Results

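The first hour of exposure to poultry house dust in THP-1 cells was described over all genes that the arrays detected, from 4 of the 12 arrays of the series, chosen by their titles. THP-1 is a human monocytic leukemia line that grows in suspension and is widely used as a stand-in for blood monocytes. The cells were serum-starved overnight and then given a 0.1% extract of dust from poultry houses for 1 h (2 arrays), or medium alone (2 arrays). The rest of the series holds THP-1 after 3 h of the same extract, and BEAS-2B, an immortalized bronchial epithelial line, given medium or 0.25% extract for 1 or 3 h, with 2 arrays for each of these groups. The labels do not give how long the control cells stood in medium, nor whether the 2 arrays of a group came from separate cultures, so the p-values measure the spread between arrays, which may be technical. As an established line THP-1 is a single leukemic clone, and nothing here bears on primary monocytes.

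A monocyte senses microbial products through surface and endosomal receptors that switch on the transcription factor NF-kB and the MAP kinase cascades. The genes that answer first are already poised for transcription and need no newly made protein: they encode transcription factors of the EGR, AP-1 and NR4A families, secreted alarm signals, and a set of inhibitors that turn the same pathways down again. Dust from poultry houses is an organic dust of litter, feed, feathers and microbial matter, endotoxin included.

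A source name in the labels reads as an epithelial line for the THP-1 arrays, so the identity of the cells was checked on marker genes. Of 15 monocyte markers on the array, 14 were well above background in both groups, at a mean log2 intensity of 11.22 and 11.14 on the control arrays and 11.2 and 11.17 on the dust arrays. None of 8 epithelial and none of 7 fibroblast markers was well above background in THP-1, while 7 of the 8 epithelial markers were in BEAS-2B control cells. Of 9 markers of the alveolar epithelial line A549, 3 were, in both THP-1 groups. Of 7 lymphocyte markers, 1 was well above background in control and 2 at 1 h. CD14 was the only marker of any list that passed the test at 1 h.

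Each array carried between 15810 and 16896 probes well above background (detection p under 0.01), with a median of 21 beads behind each probe. The replicate arrays correlated at 0.987 in control and 0.9898 at 1 h, against 0.9741 to 0.9801 between the groups, and the median SD of a feature within a group was 0.154 and 0.13 log2 units. A feature is a gene, taken at its brightest probe, or a probe with no single gene symbol. Of the 15489 features tested, 13061 were well above background on both arrays of control or of 1 h. The others were kept through other groups of the series and also count as measured in the lists below. Intensities are background-corrected and quantile-normalized log2 values, and a change is the 1 h mean minus the control mean, given with its standard error from the limma fit (n = 2 arrays per group).

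After 1 h, 195 of 15489 features were higher and 60 were lower than in control at an adjusted p under 0.05, which is 1.26% and 0.387% of those tested (1.65% together). With the arrays scaled to a common median instead of quantile-normalized, the split was 171 higher and 90 lower. Of the 255 calls, 161 rises (1.04% of the features tested) and 40 falls (0.258%) belonged to a named gene. The median over all features was -0.03 log2 units. Both dust arrays lay beyond both control arrays in all 255 called features and in 5939 features (38.3%) altogether. In 69 of the rises the control group, and in 16 of the falls the dust group, was not well above background. In those the fold is written as a lower bound, computed with each dim array at the lowest signal found well above background or at the probe's own, whichever was higher. With these features at their bound, 138 rises (0.891% of the features tested) and 20 falls (0.129%) were at least 2-fold. The rises were large and the falls small: 35 rises were at least 10-fold and 35 between 4- and 10-fold, whereas no fall reached 3-fold, and the median rise was 2.90-fold against a median fall of 1.82-fold.

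**Figure D1:**
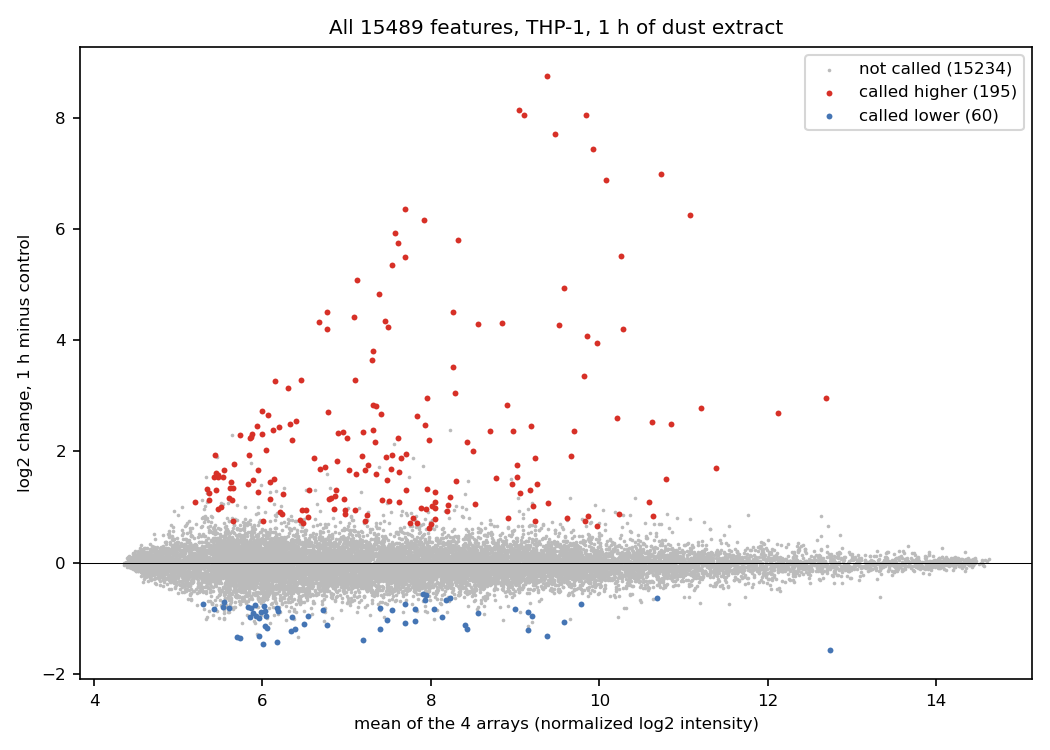
Change after 1 h of dust extract (log2, 1 h minus control, vertical axis) against the mean normalized log2 intensity of the 4 THP-1 arrays for all 15489 features; red points are the 195 called higher, blue points the 60 called lower and grey points the rest. The rises reach above 8 log2 units, while no fall passes 2.

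The gene lists were written with earlier results of these data known, so the order of their shares is a description and no independent result. Over all features tested 1.26% rose and 0.387% fell. By role, the share of measured genes that rose was highest for secreted signals, at 20 of 85 (23.5%). Signalling inhibitors and kinases followed at 25 of 132 (18.9%). Next came the survival list at 4 of 23 (17.4%), with early IER genes among the 4. Surface molecules stood at 5 of 40 (12.5%) and receptors at 9 of 83 (10.8%). Among transcription factors 17 of 470 rose (3.62%) and 8 fell. The 470 held 311 ZNF genes, of which 1 rose and 6 fell, so that share is mostly that of the ZNF list. They also held 30 chromatin and transcription regulators, of which 4 rose. Metabolic genes split into 4 rises and 6 falls among 281, and their share of rises (1.42%) was near that of all features. No gene in the lists of interferon-stimulated and housekeeping genes was called. The interferon-induced chemokine CXCL10, which rose, was counted with the chemokines. The lists held 99 of the 161 named rises and 15 of the 40 named falls. Each call was also refitted without each of the 4 arrays in turn, which leaves 1 array in that group and widens the standard error. Many rises and most falls lost their call in at least 1 of these fits. A lost call can have kept its size, so it does not show that 1 array decided it.

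**Figure D2:**
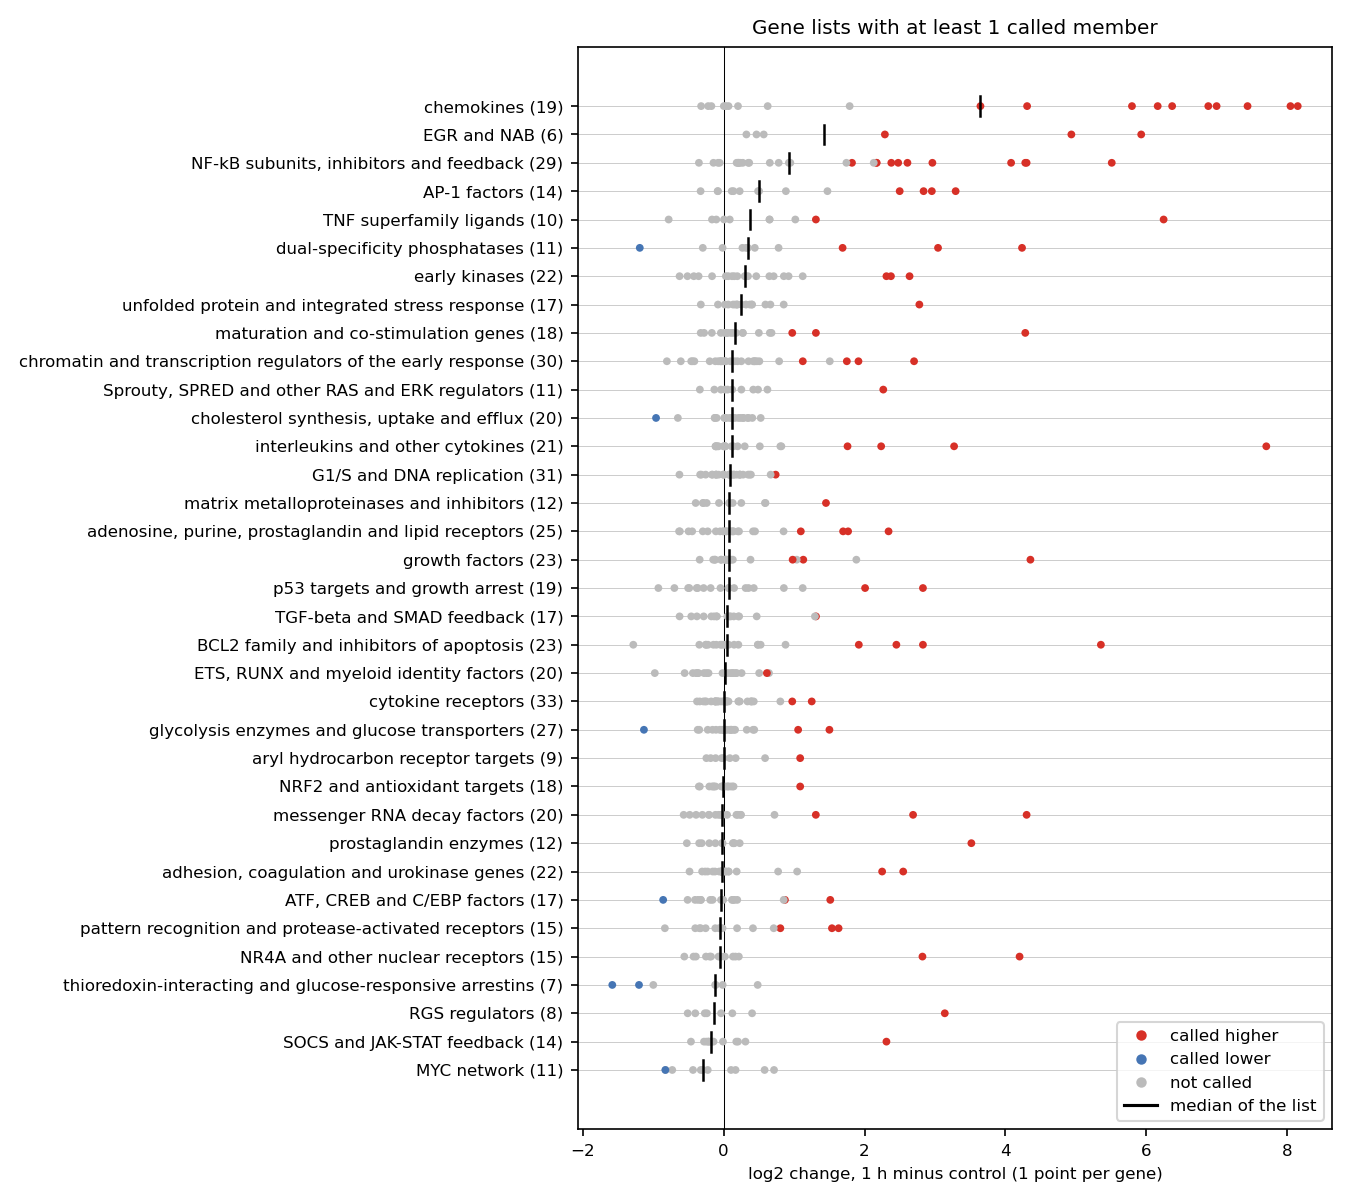
Change of each measured gene (log2, 1 h minus control, horizontal axis) in 35 gene lists with at least 1 called member that are drawn in full; the number after each name is the count of measured genes, red points were called higher, blue lower, grey not called, and the black bar is the list's median. Most called members stand to the right of the rest of their lists, and the medians of most lists lie near 0.

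Inhibitors of NF-kB and its subunits RELB and NFKB2 were higher after 1 h. No other NF-kB subunit was among the named calls. Of 29 measured genes of this list, 11 rose and none fell, and its median was 0.926 log2 units. NFKBIZ, a nuclear co-factor of NF-kB that is needed for secondary targets, had log2 intensities of 7.22 and 7.79 in control and 13.09 and 12.93 at 1 h, a 45.5-fold rise (5.51 ± 0.26, adjusted p = 1.36e-06). NFKBIA, the classical cytoplasmic inhibitor, was bright before exposure at 11.29 and 11.13 and reached 14.13 and 14.21 (7.80-fold, 2.96 ± 0.25, adjusted p = 9.45e-05). Its relatives of the same inhibitor family moved with it: NFKBID went from 6.11 and 6.39 to 8.27 and 8.58 (4.51-fold), NFKBIE from 7.24 and 7.46 to 9.80 and 9.23 (4.49-fold) and BCL3 from 6.56 and 6.83 to 9.38 and 8.98 (5.57-fold). In each of these genes the dust arrays stood at least 1 log2 unit above both controls.

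TNFAIP3, a ubiquitin-editing enzyme that shuts off signalling from TNF and Toll-like receptors, measured 7.61 and 8.01 in control and 11.90 and 11.87 at 1 h, so that the dust arrays lay almost on one another (16.9-fold, 4.08 ± 0.48, adjusted p = 0.00104). ZC3H12A, a nuclease that destroys inflammatory messenger RNAs, rose from 6.30 and 6.52 to 10.72 and 10.70 (19.7-fold, 4.30 ± 0.39, adjusted p = 0.000171). The non-canonical subunits also rose, RELB from 5.92 and 6.32 to 8.54 and 8.45 (5.20-fold) and NFKB2 from 6.08 and 5.87 to 7.66 and 7.94 (3.54-fold). NFKBID, NFKBIE and NFKB2 lie outside the 8 list members with the largest change and were added after their values were seen. SOD2, the mitochondrial superoxide dismutase and a known NF-kB target, rose from 8.94 and 8.87 to 11.64 and 11.39 (6.10-fold, 2.61 ± 0.15). The call of each of these genes held without any 1 of the 4 arrays.

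**Figure D3:**
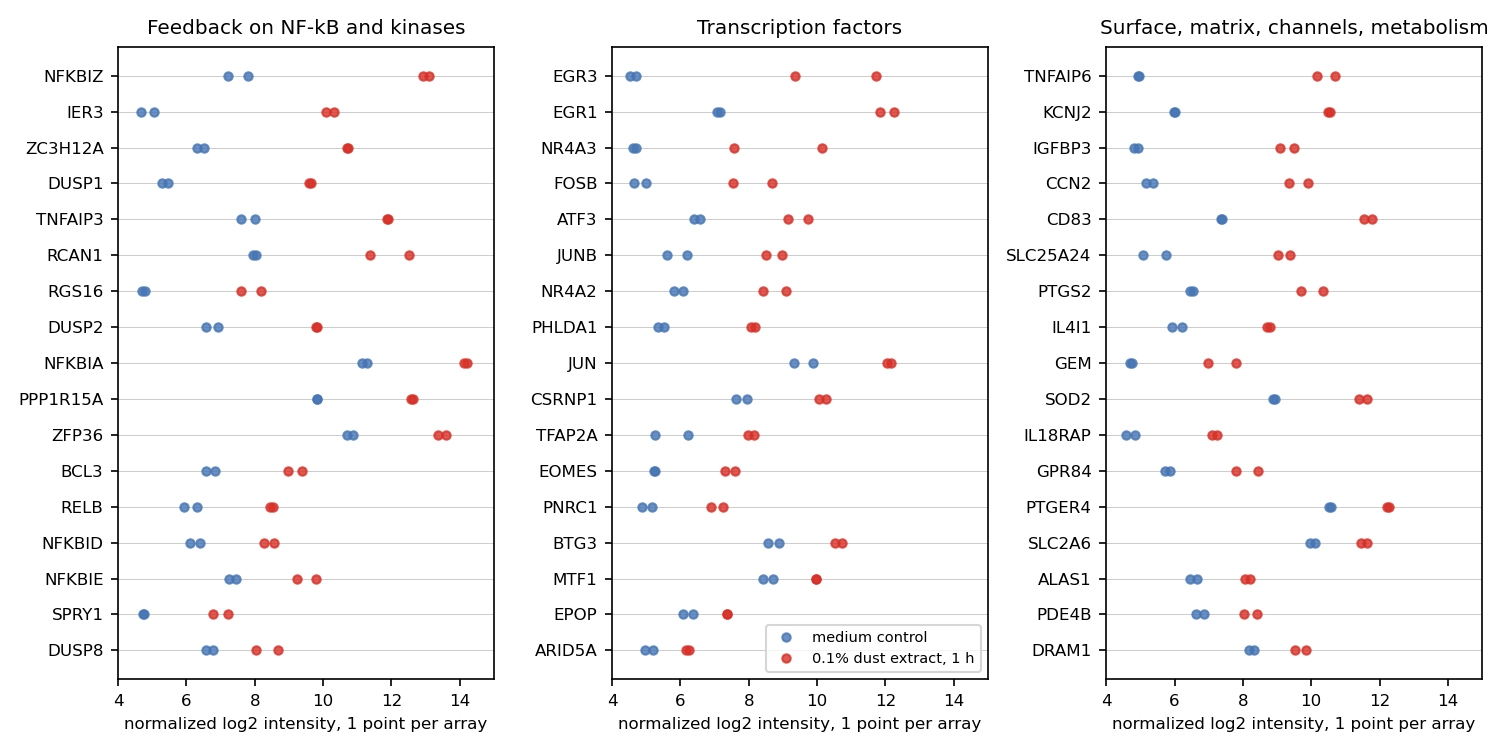
Normalized log2 intensity (horizontal axis) of 51 genes that were called higher, 1 point per array, with control arrays in blue and 1 h arrays in red; the left panel shows feedback genes, the middle one transcription factors, and the right one surface, matrix, channel and metabolic genes. In every gene drawn the red points lie to the right of the blue ones, and in EGR3 and NR4A3 the 1 h arrays stand more than 2 log2 units apart. The groups overlap in none of the 255 called features and do not overlap in 5939 of all 15489 (38.3%).

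Feedback genes of the MAP kinases went in both directions. Of 11 measured dual-specificity phosphatases, which remove phosphate from MAP kinases, 3 rose and 1 fell, with a median of 0.346 log2 units. DUSP1 was not well above background in control at 5.29 and 5.46 and reached 9.64 and 9.58, at least 15.2-fold higher (4.23 ± 0.34, adjusted p = 7.35e-05). DUSP2 measured 6.93 and 6.59 before and 9.81 and 9.80 after (8.24-fold, adjusted p = 2.81e-05), and DUSP8 6.58 and 6.78 before and 8.05 and 8.69 after (3.22-fold, adjusted p = 0.00303). Against these, DUSP6, which acts on ERK, was lower on both dust arrays, at 7.90 and 7.76 against 9.24 and 8.80 (2.28-fold lower, -1.19 ± 0.25, adjusted p = 0.0444). A second, dimmer DUSP6 probe gave -0.86 ± 0.53. The DUSP6 call ended without any 1 of the 4 arrays (adjusted p up to 0.213).

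Among 11 Sprouty, SPRED and related brakes on RAS and ERK, 6 of them well above background in control or at 1 h, SPRY1 alone was called. It lay at 4.72 and 4.75 in control, not well above background, and at 6.79 and 7.21 at 1 h, at least 2.49-fold higher (2.27 ± 0.20, adjusted p = 0.000118). RGS16, which speeds the shut-off of G protein signals, was the 1 called gene of 8 measured RGS genes, at 4.69 and 4.78 in control and 7.58 and 8.17 at 1 h, at least 4.58-fold higher (3.14 ± 0.25, adjusted p = 8.03e-05). RCAN1, an inhibitor of the calcium-dependent phosphatase calcineurin and a member of none of the lists, rose from 7.96 and 8.04 to 11.38 and 12.50 (15.4-fold, 3.94 ± 0.47, adjusted p = 0.00125). All 3 calls held without any 1 array.

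Of 22 early kinases and related genes, 3 rose: CSRNP1, a nuclear protein induced by axin, from 7.64 and 7.94 to 10.06 and 10.27 (5.19-fold, 2.37 ± 0.21, adjusted p = 0.000135), SGK1, a kinase of the AKT type, from 6.44 and 6.58 to 9.06 and 9.24 (6.23-fold), and the survival kinase PIM3 from 4.73 and 4.94 to 7.02 and 7.27, at least 2.76-fold. MAP3K8, the kinase that links NF-kB to ERK, changed by 2.13 log2 units without passing (adjusted p = 0.086). SOCS3, a brake on cytokine receptors, was the 1 called gene of 14 in the SOCS and JAK-STAT list, at 4.75 and 4.69 in control and 7.01 and 7.06 at 1 h (at least 2.55-fold), and SMAD7, the inhibitor of TGF-beta signals, that of 17 in its list (2.48-fold). Leaving out 1 array ended several of these calls. SOCS3 was lost without any 1 of the 4, and SGK1 and PIM3 without either control or 1 h replicate 2. SMAD7 was lost without either control or 1 h replicate 1. The fitted folds of SOCS3, SGK1, PIM3 and SMAD7 moved by up to 1.03, 1.07, 1.1 and 1.17 times.

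Immediate-early transcription factors rose in 3 families, while few factors of other families passed. All 6 measured genes of the EGR family, its NAB co-repressors and the factor SRF were higher at 1 h and 3 passed, with a median of 1.43 log2 units. EGR1 measured 7.16 and 7.07 in control and 11.85 and 12.25 at 1 h (30.6-fold, 4.94 ± 0.21, adjusted p = 8.03e-07). EGR3 went from 4.53 and 4.69, not well above background, to 9.37 and 11.71 (at least 28.9-fold), and EGR4 from 4.68 and 4.500 to 5.90 and 7.86 (at least 2.29-fold). In both of the latter 1 h replicate 2 stood about 2 log2 units above 1 h replicate 1. The EGR4 call ended without either control array (adjusted p up to 0.183), and leaving out 1 array moved the fitted folds of EGR3 and EGR4 by up to 2.28 and 2.00 times.

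Of 14 AP-1 factors, 4 rose. JUN lay at 9.88 and 9.33 in control and 12.06 and 12.15 at 1 h (5.65-fold, 2.50 ± 0.18, adjusted p = 3.54e-05), JUNB at 5.60 and 6.18 and 8.49 and 8.97 (7.15-fold, with 1 control array not well above background) and ATF3, a stress-induced repressor, at 6.38 and 6.58 and 9.14 and 9.73 (7.76-fold). FOSB rose at least 5.38-fold, from 4.64 and 4.998 to 7.54 and 8.68. FOS itself did not pass, with a change of 1.47 log2 units (adjusted p = 0.189). Among 15 nuclear receptors the orphan receptors NR4A2 and NR4A3 rose: NR4A2 from 6.07 and 5.81 to 8.42 and 9.10 (7.07-fold, 2.82 ± 0.30, adjusted p = 0.000593), with a second probe at 2.52 log2 units, and NR4A3 from 4.62 and 4.70, not well above background, to 7.58 and 10.14 (at least 9.05-fold). As with EGR3, 1 h replicate 2 was the higher dust array of FOSB and NR4A3, and leaving out 1 array moved their fitted folds by up to 1.51 and 2.47 times.

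Other transcription factor families showed few or no calls. None of 9 KLF factors passed, the nearest being KLF2 at 0.85 log2 units (adjusted p = 0.0514) and KLF6 at 0.72 (adjusted p = 0.301). None of 11 IRF genes passed either, with IRF2 at -0.63 (adjusted p = 0.156) and IRF2BPL at -0.43 (adjusted p = 0.275), and none of 17 HES, ID and related factors, with LYL1 at -0.74 and EPAS1 at -0.41. At an unadjusted p under 0.05 these 3 lists had 2, 3 and 3 genes, against 1841 of all 15489 features. With 1.65% of all features called, the absence of a call in lists this small does not set these families apart. In the ATF, CREB and C/EBP list NFIL3, a repressor (2.86-fold, adjusted p = 0.0316), and ATF5 (1.83-fold, adjusted p = 0.0256) rose and DBP fell, and ERF, a repressor of the ETS family, was the 1 called gene of 20 in its list (1.53-fold). NFIL3, ATF5 and ERF each ended without any 1 of the 4 arrays (adjusted p up to 0.17, 0.152 and 0.266).

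Among 30 chromatin and transcription regulators of the early response, 4 rose. PHLDA1, a pleckstrin-domain protein of the early response, went from 5.53 and 5.33 to 8.18 and 8.08 (at least 5.45-fold, 2.70 ± 0.25, adjusted p = 0.000226). BTG3, an antiproliferative protein, measured 8.55 and 8.87 and 10.53 and 10.72 (3.77-fold, adjusted p = 0.000118), and ARID5A, which stabilizes inflammatory messages, 5.21 and 4.95 and 6.26 and 6.15 (at least 1.44-fold). TOB1, a relative of BTG3, rose 3.36-fold, a call that ended without either control or 1 h replicate 2 (adjusted p up to 0.257). Of 20 factors of messenger RNA decay 3 rose, which were ZC3H12A (above), its relative ZC3H12C (2.48-fold) and ZFP36, which binds AU-rich elements of cytokine messages. ZFP36 was bright in control at 10.69 and 10.88 and reached 13.35 and 13.59 (6.45-fold, 2.69 ± 0.23, adjusted p = 0.000127). The ZC3H12C call ended without either control or 1 h replicate 1 (adjusted p up to 0.165).

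The proximal promoters of 6 of these genes are shown because each holds, close to the start site, the letters of a site for a factor that the early response is known to use. They are RefSeq sequences of GRCh38.p14, read 5′ to 3′ on the strand of the gene, with matches on either strand in capitals. The first 3 carry the NF-kB consensus: NFKBIA (chr14:35404790-35404879, minus strand, 130 to 41 bases before the start), TNFAIP3 (chr6:137867149-137867238, plus strand, 110 to 21 bases before it), which has 2 matches, and CXCL2 (chr4:74099226-74099315, minus strand, 120 to 31 bases before it), where 2 matches overlap by all but 1 base.
NFKBIA: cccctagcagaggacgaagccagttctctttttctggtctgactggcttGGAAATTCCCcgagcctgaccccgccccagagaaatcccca
TNFAIP3: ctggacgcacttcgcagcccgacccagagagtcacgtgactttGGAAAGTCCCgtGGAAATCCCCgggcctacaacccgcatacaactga
CXCL2: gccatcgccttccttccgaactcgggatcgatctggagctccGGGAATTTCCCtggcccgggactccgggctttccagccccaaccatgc
EGR1 (chr5:138465349-138465438, plus strand, 130 to 41 bases before the start) has 2 CArG boxes, the letters bound by the serum response factor. DUSP1 (chr5:172771266-172771355, minus strand, 160 to 71 bases before the start) and PPP1R15A (chr19:48872321-48872410, plus strand, 100 to 11 bases before it) each have the cAMP response element TGACGTCA.
EGR1: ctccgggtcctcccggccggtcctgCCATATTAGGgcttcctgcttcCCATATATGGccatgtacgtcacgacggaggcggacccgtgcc
DUSP1: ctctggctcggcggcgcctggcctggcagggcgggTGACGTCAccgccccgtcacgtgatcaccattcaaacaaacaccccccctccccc
PPP1R15A: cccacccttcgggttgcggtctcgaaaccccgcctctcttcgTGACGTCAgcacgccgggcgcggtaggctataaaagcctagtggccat
In a window from 250 bases before to 50 after the start, searched on both strands, the NF-kB consensus was found in 20 of the 120 rising genes with a promoter in the table (16.7%), in 3 of 36 falling ones (8.33%), in 6.65% of 9203 tested genes and in 5.72% of all 27305 promoters. The CArG box was in 4 of the 120 (3.33%) and 0 of the 36, against 1.09% of tested genes and 1.29% of all promoters. TGACGTCA was in 2.5% of rising, 5.56% of falling, 3.29% of tested and 1.98% of all promoters. The AP-1 letters TGANTCA were in 7.5% of rising and 16.7% of falling genes (4.56% of tested, 7.76% of all), and the EGR letters GCGNGGGCG in 13.3% and 22.2% (15.4% of tested, 9.28% of all). These are matches of letters in the windows and no measurement of binding.

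Secreted proteins beyond the leading chemokines and TNF formed a second tier. In the chemokine list 10 of 19 measured genes rose, with a median of 3.64 log2 units. CXCL10, best known as an interferon-induced chemokine for T cells, went from 5.32 and 5.63, not well above background, to 8.60 and 9.65 (at least 10.8-fold, 3.64 ± 0.43, adjusted p = 0.00122). None of 27 genes in the list of interferon-stimulated genes, which leaves CXCL10 out, was called. CCL14, a chemokine outside the list and chosen after its values were seen, rose at least 3.11-fold, from 4.76 and 5.11 to 7.02 and 7.62. The rest of the called chemokines were CCL2, CCL3 with its copies CCL3L1 and CCL3L3, CCL4L1, CCL20, CXCL1, CXCL2 and CXCL8, with log2 changes between 4.31 and 8.15. CCL3 and CCL4 have near-identical gene copies whose probes may measure each other. Of these calls, CCL2 ended without any 1 array and CCL20 without either control or 1 h replicate 1 (adjusted p up to 0.109 and 0.057).

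Among 21 interleukins and other cytokines, only 9 of them well above background in control or at 1 h, 4 rose, with a list median of 0.113. Besides IL1B, at 5.42 and 5.83 in control and 13.13 and 13.53 at 1 h, they were IL1A, from 4.55 and 4.48 to 7.62 and 7.95 (at least 4.29-fold), IL23A, the specific subunit of interleukin 23, from 6.16 and 6.59 to 8.14 and 8.13 (3.38-fold, adjusted p = 0.000401), and EBI3, a subunit of interleukins 27 and 35, from 5.78 and 5.99 to 8.26 and 7.97 (4.71-fold, adjusted p = 0.0034). IL1A ended without any 1 of the 4 arrays (adjusted p up to 0.118). In the TNF superfamily, 2 of 10 ligands rose, TNF itself, at 7.66 and 8.25 in control and 14.23 and 14.18 at 1 h, and TNFSF9, the 4-1BB ligand of co-stimulation, from 7.10 and 7.003 to 8.22 and 8.498 (2.48-fold, 1.31 ± 0.18, adjusted p = 0.00356).

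Of 23 measured growth factors 3 rose, with a list median of 0.074, and of 12 metalloproteinases and inhibitors 1 did, with a median of 0.0813. Only 7 of the 23 and 9 of the 12 were well above background in control or at 1 h, so both medians include dim genes. CCN2, a matricellular growth factor, lay at 5.38 and 5.18 in control, not well above background, and at 9.35 and 9.91 at 1 h (at least 15.4-fold, 4.35 ± 0.22, adjusted p = 2.48e-06). IGFBP3, which binds insulin-like growth factors, went from 4.81 and 4.93 to 9.10 and 9.49 (at least 12.2-fold, adjusted p = 8.75e-06), and TNFAIP6, a hyaluronan-binding protein of inflamed tissue, from 4.95 and 4.93 to 10.69 and 10.18 (at least 27.0-fold, adjusted p = 0.000226). Neither is in a list, and in all 3 genes every dust array stood over 3 log2 units above the controls. VEGFA, the angiogenic factor, rose 1.97-fold, from 7.56 and 7.56 to 8.62 and 8.46 (adjusted p = 0.00307), with a second probe at 0.60 log2 units that did not pass (adjusted p = 0.161). PDGFA rose at least 1.19-fold and the metalloproteinase ADAMTS1 at least 2.19-fold. PDGFA ended without control replicate 2 (adjusted p = 0.0565), and ADAMTS1 when control replicate 1 or either 1 h array was left out (up to 0.133).

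Fewer receptors than ligands were called. None of 10 chemokine receptors passed, with CCR2 at -0.66 log2 units (adjusted p = 0.0708) and CXCR4 at 0.92 (adjusted p = 0.339), and 2 had an unadjusted p under 0.05. Of 25 receptors for adenosine, purines, prostaglandins and lipids 4 rose. PTGER4, a prostaglandin E2 receptor, was bright in control at 10.52 and 10.57 and reached 12.27 and 12.21 (3.24-fold, 1.70 ± 0.21, adjusted p = 0.00177), and GPR84, a receptor for medium-chain fatty acids, went from 5.71 and 5.86 to 8.45 and 7.80 (5.07-fold, adjusted p = 0.000226). PTGER2 (at least 1.82-fold) and C3AR1, the receptor of complement C3a (at least 1.05-fold), completed the 4. The C3AR1 call ended without 1 h replicate 2 (adjusted p = 0.052), and that of PTGER2, whose fitted fold moved by up to 1.60 times, without either control or 1 h replicate 2 (up to 0.207).

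In the cytokine receptor list 2 of 33 rose, IL18R1, a chain of the interleukin 18 receptor, at least 1.24-fold, and CD40 1.96-fold. IL18RAP, the partner chain of IL18R1 and a gene outside the lists, chosen after its values were seen, went from 4.58 and 4.85 to 7.09 and 7.24 (at least 2.79-fold, 2.45 ± 0.15, adjusted p = 9.05e-06). Among 15 genes of pattern recognition, protease-activated receptors and their adaptors, TICAM1, the adaptor of Toll-like receptors 3 and 4, rose from 8.34 and 8.17 to 10.01 and 9.57 (2.90-fold, 1.54 ± 0.19, adjusted p = 0.0017), and the kinase IRAK2 (3.10-fold) and CD14 (1.75-fold) were called too. CD40, IRAK2 and CD14 ended without any 1 of the 4 arrays (adjusted p up to 0.193, 0.255 and 0.205) and IL18R1 on leaving out control replicate 1 or 1 h replicate 2 (up to 0.0639).

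At the cell surface, CD83, a marker of maturing dendritic cells, was at 7.36 and 7.40 in control and 11.55 and 11.78 at 1 h (19.4-fold, 4.28 ± 0.30, adjusted p = 3.17e-05), and a second probe gave 4.92 log2 units. It was 1 of 3 genes called of 18 in the maturation and co-stimulation list, with CD40 and TNFSF9. KCNJ2, an inwardly rectifying potassium channel, had replicates within 0.1 log2 units of each other in both groups, at 5.998 and 6.02 and 10.55 and 10.49 (22.8-fold, 4.51 ± 0.34, adjusted p = 4.69e-05). Of 22 adhesion, coagulation and urokinase genes 2 rose, ICAM1 (at least 3.96-fold) and the clotting initiator F3 (4.76-fold). ICAM1 ended without any 1 of the 4 arrays and F3 on leaving out control replicate 2 or 1 h replicate 2 (adjusted p up to 0.25 and 0.0643).

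The genes called in the survival list all rose: PMAIP1 of the BCL2 family and the early genes IER3, IER2 and IER5. MOAP1, a modulator of apoptosis outside the lists, was called lower. Of 23 BCL2 family members and related genes 4 rose. IER3, an early gene that modulates apoptosis, lay at 4.67 and 5.04, not well above background, in control and 10.33 and 10.09 at 1 h (at least 23.1-fold, 5.35 ± 0.28, adjusted p = 2.54e-06). PMAIP1, a pro-apoptotic BH3-only protein, went from 7.37 and 7.62 to 9.88 and 10.77 (7.10-fold, 2.83 ± 0.27, adjusted p = 0.000226). The early genes IER2 and IER5 rose 3.78-fold and 5.47-fold. GADD45B, which restrains stress-induced cell death, rose from 7.54 and 7.45 to 9.18 and 9.83 (4.02-fold, adjusted p = 0.000238) and was, with PMAIP1, 1 of 2 genes called of 19 in the list of p53 targets and growth arrest.

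Few stress genes were called at 1 h. PPP1R15A, a phosphatase subunit that reopens translation after stress, had replicates within 0.1 log2 units of each other in both groups, at 9.83 and 9.82 in control and 12.63 and 12.58 at 1 h (6.86-fold, 2.78 ± 0.15, adjusted p = 2.95e-06), and was the 1 called gene of 17 in the unfolded protein and integrated stress response. There HSPA5 changed by 0.59 (adjusted p = 0.144) and XBP1 by 0.85 log2 units (adjusted p = 0.152). None of 20 heat shock chaperones passed in limma, with 2 at an unadjusted p under 0.05, and the nearest was HSPA1B at 0.72 log2 units (adjusted p = 0.203). Of 18 antioxidant genes only NFE2L2, which encodes NRF2 itself, rose, from 10.10 and 9.999 to 11.18 and 11.10 (2.12-fold), which was lost when control replicate 2 or the first 1 h array was left out (adjusted p up to 0.0544).

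In metabolism, PTGS2, the inducible cyclooxygenase, was the 1 called gene of 12 in the prostaglandin enzyme list, at 6.54 and 6.47 in control and 9.69 and 10.35 at 1 h (11.4-fold, 3.52 ± 0.46, adjusted p = 0.0025). Of 201 measured solute carriers 3 rose and 2 fell (2.49% called, against 1.65% of all features). SLC25A24, a calcium-regulated carrier of the mitochondrial inner membrane, rose 13.9-fold, from 5.74 and 5.09 to 9.39 and 9.04, with 1 control array not well above background. Its second, dimmer probe changed by 0.48 log2 units (adjusted p = 0.400). SLC2A6 and SLC2A3, members of the glucose transporter family, rose 2.83-fold and 2.08-fold, and among 27 genes of glycolysis and glucose transport PDK4, the kinase that shuts pyruvate out of the citric acid cycle, fell. The SLC2A6 arrays read 9.96 and 10.12 in control and 11.64 and 11.45 at 1 h (1.50 ± 0.15, adjusted p = 0.000286). SLC2A3 ended without either control or 1 h replicate 1 (adjusted p up to 0.248). None of 18 tRNA synthetase genes passed or had an unadjusted p under 0.05, with MARS1 at -0.22 and TARS1 at -0.20 log2 units nearest.

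Several genes of small non-coding RNAs were higher after 1 h. Of 118 measured genes in a list of small nucleolar, small nuclear and related RNAs, 81 were well above background in control or at 1 h. In the whole list 12 rose and none fell (10.2% called, against 1.65% of all features). At 1 h 101 of the 118 were higher, against 6833 of all 15489 features. The median was 0.272 log2 units, against -0.03 over all features. The called members were 9 small nucleolar RNAs, the minor spliceosome RNA RNU4ATAC, the Y RNA RNY5 and the vault RNA VTRNA2-1, and the last 2 are not of the kind the list is named for. RNY5 measured 6.54 and 6.22 in control and 8.18 and 7.91 at 1 h (3.17-fold, 1.67 ± 0.16, adjusted p = 0.000226), RNU4ATAC 5.66 and 5.59 and 6.97 and 6.75 (at least 2.26-fold, adjusted p = 0.00123). The largest change of a small nucleolar RNA was 3.71-fold in SNORA41, with the control arrays apart at 6.07 and 5.25, 1 of them not well above background, and the dust arrays at 7.17 and 7.93. Of the 12 calls, those of RNY5 and RNU4ATAC held without any 1 array. SNORA41 lost its call when control replicate 2 or 1 h replicate 2 was left out (adjusted p up to 0.0999), and the others when at least 1 array was, with adjusted p up to 0.262. Most small nucleolar RNA genes lie within introns of other genes, and whether a probe read the small RNA or its host transcript was not tested.

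Some precursors of microRNAs have probes of their own. MIR221 went from 4.95 and 4.79, not well above background, to 6.77 and 6.85 (at least 2.19-fold, adjusted p = 0.00336) and MIR3142HG, a host transcript of microRNA genes, from 4.46 and 4.57 to 9.04 and 8.63 (at least 8.91-fold, 4.32 ± 0.41, adjusted p = 0.000249). ATP2B1-AS1, an antisense transcript at the ATP2B1 locus, rose from 8.40 and 7.87 to 11.55 and 11.43 (10.2-fold, 3.35 ± 0.26, adjusted p = 5.58e-05). Of the other microRNA probes called, those of MIR302C and MIR939 were at least 3.34-fold and at least 1.49-fold higher, and that of MIR555 was at least 1.03-fold lower (adjusted p = 0.0296). Leaving out 1 array ended the calls of MIR302C, MIR939 and MIR555 (adjusted p up to 0.0954, 0.0808 and 0.191). MIR221, MIR302C and MIR939 lie outside the naming rule and were chosen after their values were seen. A gene name on such a probe says where the probe maps and not that a mature microRNA changed.

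A further set of rises belongs to none of the lists, and the genes named here were chosen after their values were seen. IL4I1, a secreted amino acid oxidase of myeloid cells, lay at 5.93 and 6.21 in control and 8.80 and 8.70 at 1 h (6.41-fold, 2.68 ± 0.17, adjusted p = 9.63e-06). EOMES, a T-box factor known from lymphocytes and early development, went from 5.22 and 5.25, not well above background, to 7.30 and 7.61 (at least 3.41-fold, adjusted p = 0.00096), and TFAP2A, a factor of neural crest and skin, from 5.24 and 6.22 to 8.16 and 7.98 (5.05-fold, with 1 control array not well above background). ALAS1, the first enzyme of heme synthesis, rose 3.01-fold from 6.67 and 6.44 to 8.22 and 8.08 (adjusted p = 8.7e-05). PDE4B, which breaks down cyclic AMP, DRAM1, a lysosomal membrane protein of autophagy, and MTF1, the metal-responsive factor, rose 2.79-fold, 2.68-fold and 2.65-fold. All of these calls held without any 1 of the 4 arrays.

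The remaining programmes showed no called gene at 1 h, or single ones. None of 71 cytosolic and 76 mitochondrial ribosomal protein genes passed, with 2 and 3 at an unadjusted p under 0.05 and medians of 0.00503 and 0.0374 log2 units. None of 12 housekeeping genes passed or had an unadjusted p under 0.05 (median 0.00172), with HPRT1 at 0.24 and PGK1 at 0.16 nearest. None of 26 genes of G2 and mitosis passed, although 23 were lower at 1 h, with a median of -0.294 and MKI67 lowest at -0.79 log2 units (adjusted p = 0.39). Of 27 interferon-stimulated genes 23 were lower, with a median of -0.152 and GBP2 highest at 1.17 (adjusted p = 0.176). Each of these last 2 lists had 1 gene with an unadjusted p under 0.05. Over all 15489 features 8656 were lower and 1841 had an unadjusted p under 0.05. In the G1 and replication list CCND1, the cyclin of G1 entry, was the 1 called gene of 31 (1.67-fold), and the call ended without any 1 of the 4 arrays (adjusted p up to 0.144).

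The 40 named falls were shallow and spread over many functions. TXNIP, which binds and inhibits thioredoxin and restrains glucose uptake, was the deepest: its bright signal of 13.27 and 13.78 in control dropped to 11.93 and 11.97 at 1 h (2.99-fold lower, -1.58 ± 0.30, adjusted p = 0.0265). ARRDC2, of the same arrestin family, went from 8.06 and 7.92 to 6.94 and 6.64 (2.30-fold lower, adjusted p = 0.0174), while a second probe of similar brightness changed by 0.29, and ARRDC4 changed by -0.997 log2 units without passing (adjusted p = 0.0588), so 2 of 7 measured genes of this family were called. PDK4 fell from 7.34 and 7.32 to 6.04 and 6.36 (2.19-fold, -1.13 ± 0.14, adjusted p = 0.00196). MYLIP, a ubiquitin ligase for the LDL receptor, went from 9.81 and 9.55 to 8.79 and 8.65 (1.94-fold lower) and was the 1 called gene of 20 in the cholesterol list. The nucleoside transporter SLC29A3 and SLC46A3, a lysosomal carrier, were 2.29-fold (with 1 dust array not well above background) and 1.50-fold lower.

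**Figure D4:**
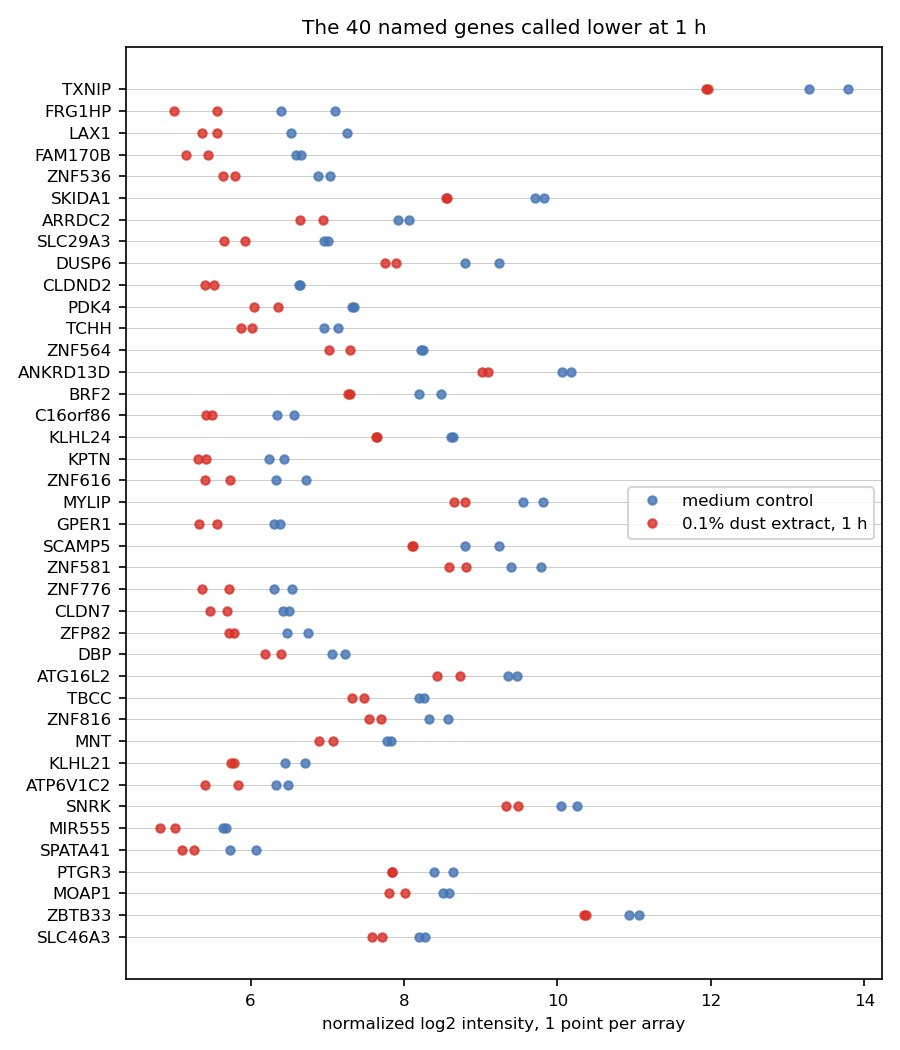
Normalized log2 intensity (horizontal axis) of the 40 named genes called lower at 1 h, 1 point per array, with control arrays in blue and 1 h arrays in red, ordered from the largest fall (TXNIP) at the top to the smallest (SLC46A3). The groups do not overlap in any of the 40 genes, and the gap between them is mostly near 1 log2 unit. They overlap in none of the 255 called features and do not overlap in 5939 of all 15489 (38.3%).

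Of the 40 named falls, 8 were in the lists of transcription factors. Of 311 measured ZNF genes, mostly repressors of the KRAB type, 6 fell and 1 rose (2.25% called, against 1.65% of all features). At 1 h 226 of them were lower, against 8656 of all 15489 features, and the median was -0.168 log2 units, against -0.03. The 6 were ZNF536, from 6.87 and 7.03 to 5.64 and 5.80 (-1.23 ± 0.18, adjusted p = 0.00514, with 1 dust array not well above background), ZNF564, from 8.22 and 8.25 to 7.02 and 7.29 (2.12-fold lower), ZNF616, ZNF581, ZNF776 and ZNF816, the last 4 with changes between -0.96 and -0.83. ZNF697 rose 3.22-fold with 1 control array not well above background, which was lost on leaving out control replicate 1 or 1 h replicate 1 (adjusted p up to 0.0902). MNT, a repressor that competes with MYC, went from 7.83 and 7.78 to 6.89 and 7.07 (1.77-fold lower, adjusted p = 0.0412), and MYC itself changed by -0.82 log2 units without passing (adjusted p = 0.179). DBP, a clock output factor, went from 7.23 and 7.07 to 6.19 and 6.39 (1.81-fold lower, adjusted p = 0.0347). None of 9 clock genes passed, with CIART at -1.05 (adjusted p = 0.138) and 1 gene at an unadjusted p under 0.05. ZBTB33, a reader of methylated DNA, and ZFP82 also fell, by 0.63 and 0.86 log2 units.

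The rest of the falls had no shared theme in the lists. LAX1, an adaptor that dampens antigen receptor signals, FAM170B, TCHH, a structural protein of hair follicles, CLDND2 and CLDN7, a claudin of epithelial junctions, were dim genes with control intensities between 6 and 8. FAM170B lay at 6.59 and 6.65 in control and 5.16 and 5.44 at 1 h (at least 2.01-fold lower), TCHH at 7.13 and 6.96 and 5.87 and 6.01 (2.15-fold lower) and CLDND2 at 6.63 and 6.65 and 5.40 and 5.52 (at least 2.03-fold lower). KLHL24, an adaptor of a ubiquitin ligase, went from 8.62 and 8.64 to 7.63 and 7.65 and its relative KLHL21 from 6.45 and 6.71 to 5.74 and 5.78. Brighter genes were ANKRD13D, from 10.06 and 10.17 to 9.01 and 9.09, the kinase SNRK, from 10.05 and 10.26 to 9.48 and 9.33, SKIDA1, from 9.83 and 9.70 to 8.56 and 8.54, and ATG16L2, a relative of an autophagy factor, from 9.35 and 9.47 to 8.43 and 8.73. The others were BRF2, a subunit of an RNA polymerase III initiation factor, GPER1, a membrane receptor for estrogen, TBCC, a tubulin folding factor, MOAP1, a modulator of apoptosis, SCAMP5, ATP6V1C2, KPTN, PTGR3, C16orf86, SPATA41, FRG1HP and MIR555, with changes between -1.47 and -0.64.

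Of the 40 falls, those of TCHH, PDK4, CLDND2 and FAM170B held without any 1 of the 4 arrays (adjusted p up to 0.0191, 0.0232, 0.00961 and 0.0133). The other 36 ended without at least 1 of them, with a highest adjusted p between 0.0568 and 0.276. Leaving out control replicate 1 or 2 ended 29 and 32 of the calls, and leaving out 1 h replicate 1 or 2 ended 31 and 32.

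Called features without a single gene symbol numbered 34 rises and 20 falls. For 45 called genes a further 54 probes could be compared with the one used: 50 changed in the same direction and 36 lay within 1 log2 unit of it. Of the genes described above, ARRDC2 and KPTN had a second probe of opposite sign, at 0.29 and 0.07 log2 units (adjusted p = 0.727 and 0.957). Changes smaller by over 1 log2 unit were read from second probes of CCN2 (2.29), IGFBP3 (3.35), SPRY1 (1.26), SOD2 (0.55), PHLDA1 (0.54) and SOCS3 (0.34) and from the other probes of TFAP2A (0.89 and 0.24), and a larger one from that of RCAN1 (5.09). NFKBIZ had a dim second probe at 1.11 log2 units, against 5.51 for the one used.

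What followed 1 h was read from the arrays of 3 h, which share the 1 h arrays with the first comparison, so the values of both are given side by side. Between 1 and 3 h, 6116 of all features differed (39.5%), 2609 higher and 3507 lower at 3 h. IL23A, up 1.76 log2 units at 1 h, gained another 5.79 by 3 h (adjusted p = 2.92e-08), and EBI3, up 2.24, gained 4.60. EPOP, a regulator of Polycomb and elongin complexes, IGFBP3 and IRAK2 followed, at 1.14 then 4.22, 4.42 then 4.10, and 1.63 then 3.74. Coming down was EGR1, up 4.94 and then -2.76 (adjusted p = 5.6e-06). SPRY1 and B3GNT2, a glycosyltransferase, up 2.27 and 0.86 at 1 h, were not well above background at 3 h, at least 2.24-fold and 3.56-fold lower than at 1 h. KLHL24 and SLC46A3, which fell by 0.99 and 0.58 log2 units at 1 h, were likewise lost in the background at 3 h, at least 3.50-fold and 3.52-fold lower than at 1 h. All 10 calls of this comparison held without any 1 of the 1 h or 3 h arrays.

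For several feedback inhibitors no further change was called. NFKBIA, TNFAIP3, DUSP1 and RGS16 changed between 1 and 3 h by -0.01, 0.06, 0.06 and 0.18 log2 units, with adjusted p of 0.988, 0.944, 0.909 and 0.621. ZFP36, in contrast, changed by -2.03 (adjusted p = 8.42e-05), and DUSP6, lower at 1 h, by 1.77 (adjusted p = 0.000306). The choice of these 6 genes was made with their values known. The first 4 missed the threshold, which does not show that they stood still. NFKBIA was very bright at both times, at 14.13 and 14.21 at 1 h and 14.23 and 14.10 at 3 h. Whether its signal was near the upper limit of the arrays was not tested.

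BEAS-2B cells gave a view of the same hour in other cells with their own controls, at a dose of 0.25% against 0.1%, so that cell line and dose cannot be told apart. In BEAS-2B 183 features were called (1.18%), of which 171 rose (1.10%) and 12 fell (0.0775%), and 52 rose in both lines, which is 26.7% of the THP-1 rises and 30.4% of those of BEAS-2B. The change itself differed between the lines in 88 features (0.568% of all), 47 with the higher change in THP-1 and 41 with the lower. They included 46 of the 195 THP-1 rises, all higher in THP-1, and 8 of the 60 falls, all lower there. The difference uses the same THP-1 arrays that picked these rises and falls, so that direction was largely set beforehand. Among genes with a symbol, the chemokines CCL4L1, CCL3, CCL3L1 and CCL3L3 had the largest differences, with fitted log2 changes of 8.15, 8.04, 7.43 and 6.996 in THP-1 and 0.10, 0.02, -0.06 and 0.08 in BEAS-2B. In THP-1 control cells CCL4L1 was not well above background (at least 173-fold higher at 1 h) and CCL3 was on 1 array of the 2. None of the 4 was well above background on both BEAS-2B arrays of either group. The potassium channel gene KCNJ2 followed at 4.51 against 0.28 (difference -4.23 ± 0.48, adjusted p = 0.00295).

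**Figure D5:**
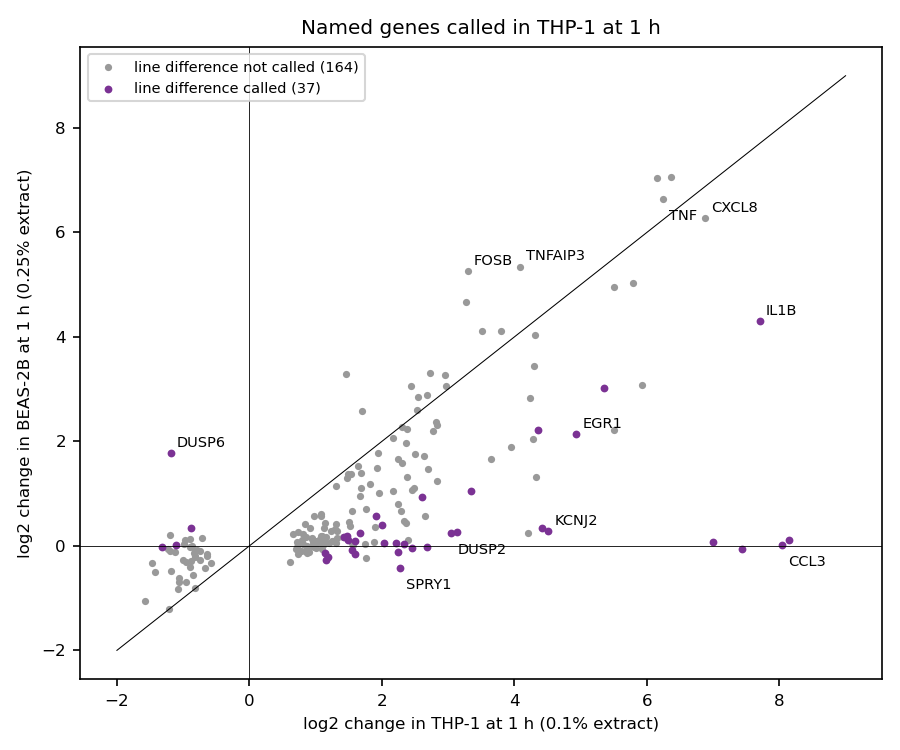
Change after 1 h of dust extract in BEAS-2B (log2, 0.25% extract, vertical axis) against that in THP-1 (log2, 0.1% extract, horizontal axis) for the 201 named genes called in THP-1; the 37 purple genes also differed between the lines, the 164 grey ones did not pass that test, and the oblique line marks equal change. TNF and CXCL8 lie near the line, and KCNJ2 and CCL3 near 0 on the vertical axis.

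Among the falls, DUSP6 moved in opposite directions, at -1.19 in THP-1 and 1.77 in BEAS-2B (adjusted p = 0.0053 there), with a difference of 2.96 ± 0.35 (adjusted p = 0.00372). CLDN7, lower in THP-1, changed by 0.35 in BEAS-2B, and FAM170B and TCHH were not well above background on any BEAS-2B array. The calls of the difference for the chemokines, KCNJ2 and DUSP6 held without any 1 THP-1 array, those of CLDN7 and TCHH ended without any 1 of the 4, and that of FAM170B without either control or 1 h replicate 1 (adjusted p up to 0.186, 0.128 and 0.108). TNFAIP3, NFKBIZ and NFKBIA rose in both lines, by 4.08, 5.51 and 2.96 log2 units in THP-1 and 5.34, 4.96 and 3.05 in BEAS-2B (adjusted p = 0.000319, 1.29e-05 and 0.000175 there), and the differences between the lines did not pass.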

How the data were processed

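RNA of THP-1 cells was measured on Illumina bead arrays, 1 colour and 1 sample each. Per the file headers, the raw table that was deposited gives an average intensity, its bead standard error, a bead count and a detection p-value for every probe and array, written by GenomeStudio per the submitters' processing notes; a value table deposited by the authors was used only as an alternative, after a log2 transformation. The 47320 probes were background-corrected by normexp from the detection p-values (offset 16) and quantile-normalized over all 12 arrays (limma 3.58.1). Probes stayed in where both arrays of 1 or more of the 6 groups had a detection p under 0.01 (19045 probes), and each of 11422 genes was taken at its brightest probe, with 4067 probes without a single symbol tested beside them. Symbols come from GEO's platform annotation, updated through RefSeq: 30112 probes had 1 symbol, 8 several and 17200 none.

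The log2 values were fitted in limma with 1 mean for each of the 6 groups and empirical Bayes variances, and p-values were adjusted by Benjamini and Hochberg over all 15489 features, with a threshold of 0.05. On data simulated from the group means and fitted spreads of the features, the fit recovered 74 of 100 features changed by 1 log2 unit and 100 of 100 changed by 2, with 14 false calls. The simulated noise was normal and independent between arrays, which favours the fit, so these counts do not measure errors among the real calls. The 1 h members, the gene lists and the naming rule were chosen with earlier results of these data known. The rule takes the 40 largest rises, every fall, up to 8 called members of each list, the 2 members nearest the threshold in a list without a call, and up to 5 of the largest changes in each direction of the other comparisons among genes called at 1 h. One gene list is not reported here, although its members count in the shares by role. Only 2 arrays a group limit the precision. Promoters are RefSeq's, matched by symbol.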

Additional observations from a re-analysis of the deposited data

Results flagged for a closer look

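The results listed here are those in which the change differed between times or between lines by a test of the difference. Between 1 and 3 h of extract in THP-1, 6116 features differed. In genes called at 1 h the largest further gains to 3 h were those of IL23A (5.79 log2 units), EBI3 (4.60), EPOP (4.22), IGFBP3 (4.10) and IRAK2 (3.74), and the largest fitted declines those of KLHL24 (-3.02), EGR1 (-2.76), SPRY1 (-2.34), B3GNT2 (-2.31) and SLC46A3 (-2.10). Of the declining genes, EGR1 was well above background at 3 h and the other 4 were not, so that their values at 3 h are bounds.

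Between the lines, the change at 1 h differed in 88 features. Written as the BEAS-2B change minus the THP-1 change in log2 units, the fitted values were -8.04 for CCL4L1, -8.03 for CCL3, -7.50 for CCL3L1, -6.91 for CCL3L3 and -4.23 for KCNJ2, and 2.96 for DUSP6, 1.30 for FAM170B, 1.23 for CLDN7 and 1.12 for TCHH. None of the 4 chemokine genes was well above background on both BEAS-2B arrays of either group. They are close copies and not independent measures. The dose of the extract differed between the lines.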

How the results depend on the processing

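The count of 255 called features at 1 h was between 178 and 321 without background correction, with median scaling, from the authors' value table, without a detection filter, with a detection p under 0.05, with all kept probes, with limma-trend, with the 4 arrays alone (178) or with the replicate number as a block (321). It fell to 163 with the 6 THP-1 arrays normalized and fitted alone, and to 149 to 163 without any 1 array. Rises numbered 126 to 137 without 1 array. The falls depended more on the setting: 13 with the 6 THP-1 arrays alone, 18 with the 4 arrays alone, 96 with the replicate block and 16 to 27 without 1 array, against 60. Of 201 named calls, 105 to 110 remained without a given array and none changed sign in any setting; the sign turned only for TARS1, never called, which lay at 0.02444 without control replicate 2 and -0.4245 without control replicate 1. The count at 3 h against 1 h lay between 4650 and 6638, and that of the difference between the lines at 59 to 97, or 40 to 58 without 1 THP-1 array. With the replicate block they were 6638 and 85. The labels number the replicates without saying what the number stands for, and with 2 numbers a group the pairing is not taken as real, although deviations of equal numbers correlated at 0.341 between control and 1 h, 0.286 and 0.238 in the other pairs of THP-1 groups. List medians under 4 other settings moved by less than the spread between arrays in 185 of 208 cases. Genes near background, 69 of the rises, have bounds only.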
